A study of Mus musculus with 6 samples.

Results

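The 10 genes described here are Phgdh, Psat1, Psph, Shmt1, Shmt2, Mthfd1, Mthfd2, Mthfd1l and Asns, which encode enzymes of serine synthesis, folate one-carbon metabolism and asparagine synthesis, and Atf4, which encodes a transcription factor that acts on several of them. They were taken by gene symbol from 26771 genes listed in at least 1 library, and all 10 were listed in all 6 libraries. The libraries held messenger RNA of spleen γδ T cells that make interleukin-17 (γδT17 cells), from C57BL/6 mice with the TCRβ-/- genotype, so every group lacked conventional αβ T cells. The Initial group (3 libraries, mice A, B and C) was sorted from spleen cells before culture. The Induced group (3 libraries, mice A, B and C) was purified as γδ T cells with a pan T cell kit on day 8 of a spleen cell culture whose protocol rests on IL-1β plus IL-23. Both groups were labelled γδT17, but each was prepared in 1 way only, so culture and purification cannot be told apart. Ages, sexes and the sorting gate of the Initial cells were not given in the sources used here.

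Serine is made from the glycolytic intermediate 3-phosphoglycerate in sequential steps by PHGDH, PSAT1 and PSPH. The SHMT enzymes then pass a one-carbon unit from serine to folate, leaving glycine, and the MTHFD enzymes carry that unit through its oxidation states, in the mitochondrion (SHMT2, MTHFD2, MTHFD1L) and in the cytosol (SHMT1, MTHFD1), where it serves purine and thymidylate synthesis. Asparagine synthetase (ASNS) makes asparagine from aspartate and glutamine. ATF4 is the transcription factor of the amino acid response, and its protein is set largely by translation of its mRNA when the initiation factor eIF2α is phosphorylated, which mRNA libraries do not measure.

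The sequence that ATF4 binds with C/EBP partners, the C/EBP-ATF response element, is best known from the Asns promoter, so that promoter is shown here. RefSeq promoter windows (GRCm38.p6, 250 bases before to 50 bases after each start) were found for all 10 genes, 11 windows in all. They were searched on both strands for TGATGNAA, and only the Asns window held a match, in the direction of transcription, from 23 to 16 bases before the RefSeq start. Of all 32817 windows of that length, 3.97% held this motif. No window of the 10 genes held CACGTG, the E-box bound by MYC among others, which 7.15% of all windows held, and no match says only that these letters were not in these windows. The stretch below covers 143 bases up to that start (chr6:7693210-7693352, GRCm38.p6, minus strand), written 5′ to 3′, with the match in capitals. The GENCODE span of the gene begins within the stretch, before the match, so by that annotation the match lies inside the gene.
Asns promoter: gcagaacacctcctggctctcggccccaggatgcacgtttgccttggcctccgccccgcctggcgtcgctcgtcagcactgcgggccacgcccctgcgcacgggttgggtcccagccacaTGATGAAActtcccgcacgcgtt

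After culture 7 of the 9 enzyme genes rose, Shmt2 and Mthfd1l did not pass the test, and Atf4 fell. Asns had by far the largest change of the 10, with a mean FPKM 22.8 times higher in Induced cells, followed by Shmt1 (3.75 times), Mthfd2 (3.19 times) and Psat1 (2.60 times), while the mean of Atf4 was 3.22 times lower. The values are FPKM, fragment counts scaled by transcript length and library size. Log2 fold changes are of FPKM + 1, Induced against Initial, from limma across 11265 genes with Benjamini-Hochberg adjustment, given with their standard error (SE), and a gene was called at an adjusted p under 0.05. Of all genes tested, 70.4% were called, 37.3% as higher and 33.1% as lower, so a call by itself was common in this comparison. The groups did not overlap for 9 of the 10 genes, against 75.4% of all genes tested. Rises of at least 2-fold on this scale were called for 4 of the 10 genes, against 12.0% of all genes, and falls of that size for Atf4, against 13.2%. The median log2 fold change was 0.79 over the 10 genes and 0.03 over all genes tested.

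**Figure D1:**
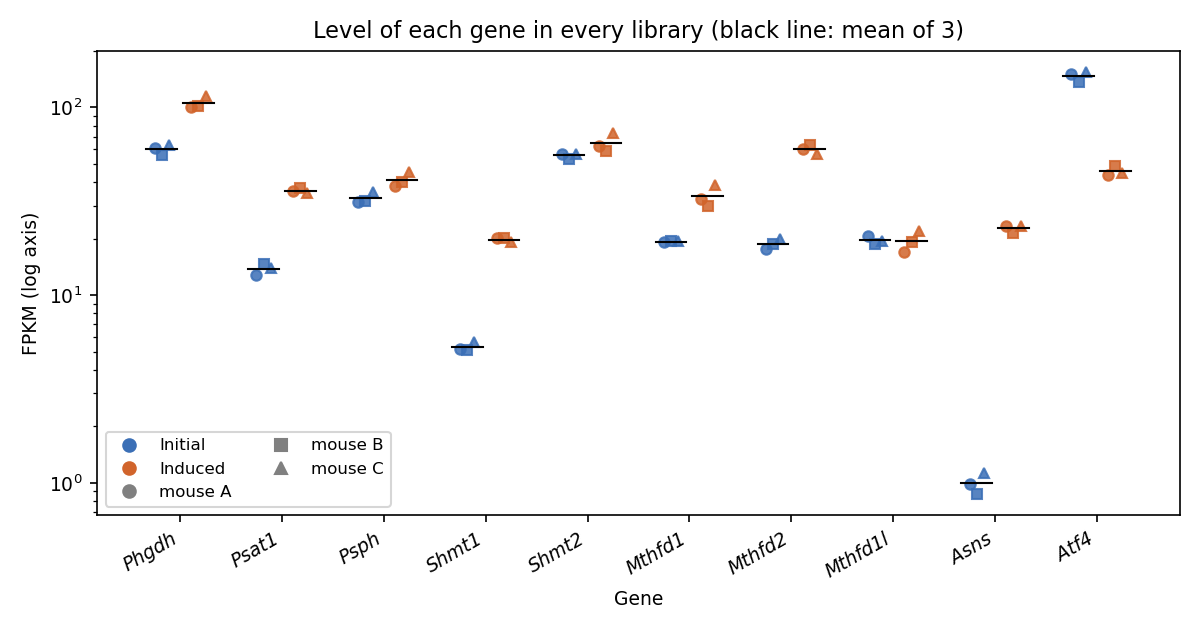
FPKM (log axis) of the 10 genes in each of the 6 libraries, by group (colour) and mouse (symbol), with the group mean of 3 libraries as a black line. Asns lay near 1 FPKM in all Initial libraries and above 21 FPKM in all Induced libraries, Atf4 lay lower in all Induced libraries, and only Mthfd1l overlapped between the groups.

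Other cell types moved with the groups. All 10 B cell and plasma cell markers, all 10 macrophage and monocyte markers and all 7 red cell markers were lower in every Induced library than in every Initial library. Their summed levels went from 1683 to 1973 FPKM down to 71.2 to 120.3 FPKM for B cells, from 566 to 1086 down to 3.82 to 5.82 FPKM for macrophages, and from 1220 to 1745 down to 1.17 to 1.64 FPKM for red cells, with Alas2 listed at 0 in all Induced libraries. The 5 NK cell markers summed to 245 to 299 FPKM in Initial and 46.2 to 229 FPKM in Induced libraries, with Klra8 at 0 in the latter, and the 7 neutrophil markers, of which none was abundant enough to be tested, to at most 15.2 and 4.84 FPKM. The γδ T cell markers, among them Cd3d, Cd3e, Cd3g, Cd247 and Trdc, were present in all libraries. Of those 10 markers 3 rose, 3 fell and 4 did not pass. All 20 genes of a cell cycle list rose, with sums of 453 to 514 FPKM before and 2742 to 2951 FPKM after culture. The part of these shifts in the changes below was not tested, and in bulk samples fewer cells of a type and less RNA per cell cannot be told apart.

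All 3 genes of serine synthesis rose. Phgdh encodes phosphoglycerate dehydrogenase, the first and committed enzyme of the pathway (ENSMUSG00000053398, chromosome 3, 98313170 to 98339990, minus strand, GRCm38). It had 60.9, 55.9 and 62.9 FPKM in Initial libraries A, B and C and 99.98, 101.7 and 115.3 FPKM after culture. All Induced libraries lay above all Initial ones, and the log2 fold change was 0.81 (SE 0.08, adjusted p = 4.7e-05). Psat1, for phosphoserine aminotransferase (ENSMUSG00000024640, chromosome 19, 15904678 to 15947337, minus strand), went from 12.9, 14.7 and 13.9 to 35.8, 37.3 and 34.9 FPKM. It had the largest change of the 3 genes, and its log2 fold change was 1.32 (SE 0.07, adjusted p = 2.1e-06), while its Induced libraries differed by a coefficient of variation of 3.45%.

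Psph encodes the phosphatase of the last step (ENSMUSG00000029446, chromosome 5, 129765558 to 129787449, minus strand). It had 31.5, 31.6 and 35.7 FPKM before and 38.1, 40.1 and 45.6 FPKM after culture, without overlap, a small rise of 0.32 on the log2 scale (SE 0.09, adjusted p = 0.012). Psph shares 452 exonic bases with Cct6a, a chaperonin subunit gene on the opposite strand, and nothing in the sources used here says how counting handled strand. Cct6a stood higher, at 124.8 to 142.6 FPKM in Initial and 155.4 to 179.4 FPKM in Induced libraries, and rose by a log2 fold change of 0.29 (adjusted p = 0.014), so the level and the change of Psph are uncertain. Summed over the 3 genes, the pathway stood at 106.7 ± 5.27 FPKM (SD, n = 3) in Initial and 183.0 ± 11.4 FPKM in Induced cells. The steps did not move by the same amount: Psat1, the lowest of the 3 in both groups, went from 23.1% to 34.1% of the mean Phgdh level.

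The 3 mitochondrial one-carbon genes differed among themselves. Mthfd2, for the mitochondrial methylenetetrahydrofolate dehydrogenase and cyclohydrolase, an enzyme known for its high level in dividing and embryonic cells (ENSMUSG00000005667, chromosome 6, 83305691 to 83325908, minus strand), had 17.6, 18.8 and 20.0 FPKM before and 60.3, 63.0 and 56.7 FPKM after culture. Its log2 fold change was 1.62 (SE 0.07, adjusted p = 7.6e-07), higher than that of 94.4% of the genes tested. Shmt2, for mitochondrial serine hydroxymethyltransferase (ENSMUSG00000025403, chromosome 10, 127517123 to 127522444, minus strand), was abundant in both groups, with 56.8, 53.3 and 56.8 FPKM before and 62.5, 58.9 and 73.3 FPKM after culture. The groups did not overlap and each mouse was higher after culture, but Shmt2, at 0.21 on the log2 scale (SE 0.09, adjusted p = 0.061), did not pass the test. With the mouse as a block, which pairs the libraries of one animal, the adjusted p was 0.039, and without Induced library B, the lowest of its group, the log2 fold change was 0.28 (adjusted p = 0.033). Without Induced library C, the highest, the log2 fold change was 0.12.

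Mthfd1l encodes the mitochondrial formyltetrahydrofolate synthetase, which releases formate for the cytosol (ENSMUSG00000040675, chromosome 10, 3973118 to 4167081, plus strand). It had 20.7, 18.6 and 19.5 FPKM in Initial and 17.04, 19.3 and 21.97 FPKM in Induced libraries. The groups overlapped, 2 of the 3 mice were higher after culture, and the log2 fold change was -0.02 (SE 0.10, adjusted p = 0.88). The 3 mitochondrial genes together went from 94.0 ± 2.94 to 144.3 ± 6.68 FPKM (SD, n = 3), and Mthfd2 held most of the difference.

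Both cytosolic one-carbon genes rose. Shmt1, for cytosolic serine hydroxymethyltransferase (ENSMUSG00000020534, chromosome 11, 60788104 to 60811718, minus strand), had 5.14, 5.08 and 5.61 FPKM before and 20.1, 20.1 and 19.1 FPKM after culture. The libraries of each group lay close together and far from the other group, and the log2 fold change was 1.73 (SE 0.08, adjusted p = 6.8e-07), above that of 95.0% of the genes tested. Shmt1 shares 184 exonic bases with Smcr8 on the opposite strand, whose level was below that of Shmt1 in every library. Mthfd1, for the cytosolic enzyme that joins the dehydrogenase, cyclohydrolase and formyltetrahydrofolate synthetase activities in one protein (ENSMUSG00000021048, chromosome 12, 76255298 to 76319803, plus strand), had 19.1, 19.4 and 19.3 FPKM before and 32.7, 29.9 and 38.6 FPKM after culture. Its Initial libraries differed by a coefficient of variation of only 0.780%, its Induced libraries by 13.3%, and the log2 fold change was 0.77 (SE 0.10, adjusted p = 0.00018). Summed, the cytosolic pair rose from 24.6 ± 0.350 to 53.5 ± 3.92 FPKM (SD, n = 3), 2.18 times, against 1.53 times for the mitochondrial trio.

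The ratio of a mitochondrial gene to its cytosolic counterpart within a library does not depend on how that library was scaled, apart from the pseudocount, and it moved in opposite directions for the enzymes compared. Shmt2 had 11.1, 10.5 and 10.1 times the FPKM of Shmt1 in Initial libraries A, B and C and 3.10, 2.93 and 3.84 times in the Induced libraries, a difference in log2 ratio of -1.52. Mthfd2 had 0.922, 0.968 and 1.03 times the FPKM of Mthfd1 before and 1.84, 2.11 and 1.47 times after culture, a difference of 0.86. Mthfd1l went from 1.08, 0.960 and 1.01 times to 0.522, 0.645 and 0.569 times that of Mthfd1, a difference of -0.78. None of the 3 ratios overlapped between the groups, and each gave p = 0.1 in a two-sided exact permutation test (0.1 after Benjamini-Hochberg adjustment over the 3), the smallest value that 3 libraries against 3 can give.

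**Figure D2:**
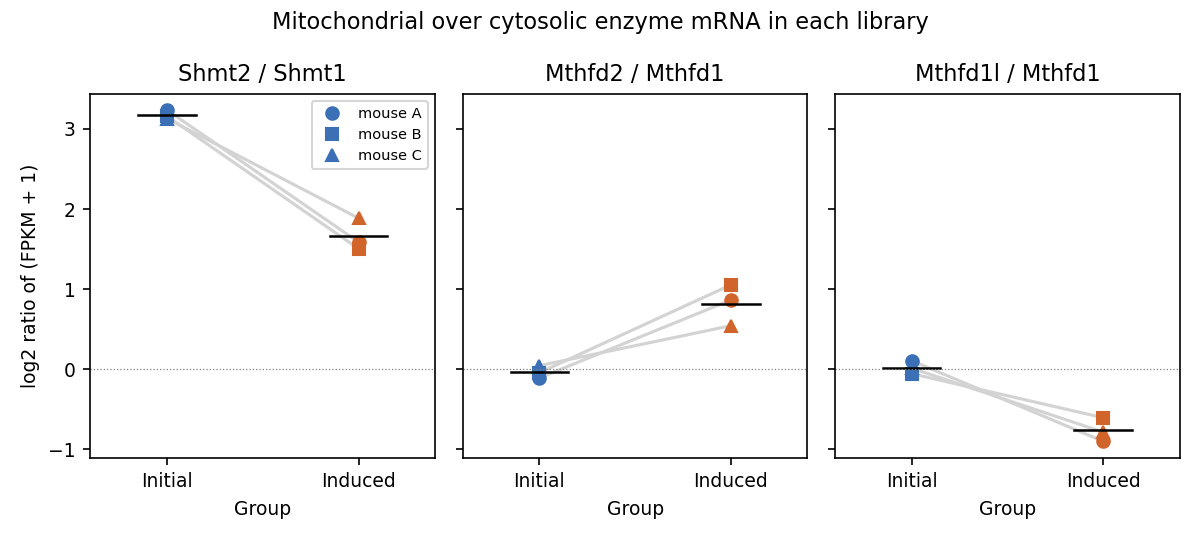
Log2 ratio of FPKM + 1 of a mitochondrial to a cytosolic enzyme gene in each library, with the libraries of a mouse joined by a grey line, Initial in blue, Induced in orange and the group mean as a black line. Shmt2 over Shmt1 and Mthfd1l over Mthfd1 were lower in all Induced libraries, and Mthfd2 over Mthfd1 was higher in all of them.

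The asparagine synthetase gene Asns (ENSMUSG00000029752, chromosome 6, 7675169 to 7693254, minus strand) had 0.989, 0.874 and 1.13 FPKM in Initial libraries A, B and C and 23.5, 21.5 and 23.4 FPKM in the same order of mice after culture. The level was low in all Initial libraries and similar in all Induced ones. The gene whose promoter stretch is printed above went from the lowest of the 10 to a place above Shmt1 and Mthfd1l. The log2 fold change was 3.57 (SE 0.09, adjusted p = 7.2e-08), which ranked 72 from the top among the 11265 genes tested. On this scale the change of a gene near 1 FPKM is understated, and with a pseudocount of 0.1 or 5 the log2 fold change was 4.38 or 2.21. From the estimated depth, the Initial values rested on about 47 to 64 fragments, for which counting alone gives a coefficient of variation of 12.5 to 14.6%, and the libraries differed by 13.0%.

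Atf4 (ENSMUSG00000042406, chromosome 15, 80255184 to 80257541, plus strand) was the only one of the 10 genes that fell. It had 151.3, 136.9 and 154.8 FPKM in Initial libraries and 43.9, 48.8 and 44.8 FPKM in Induced libraries, lower after culture in 3 of 3 mice. The log2 fold change was -1.67 (SE 0.07, adjusted p = 7.1e-07), and 7.27% of the genes tested had a lower one. The mRNA of this activator and that of Asns, one of the genes it is known to act on, thus changed in opposite directions in every mouse. The levels of B cell, macrophage and red cell markers fell with Atf4, and the cell cycle genes rose, as did 7 of the 9 enzyme genes.

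The order of levels changed with culture. In Initial cells Atf4 was highest, followed by Phgdh and Shmt2, then Psph, then Mthfd1l, Mthfd1 and Mthfd2, then Psat1, Shmt1 and Asns. The ranges of Phgdh and Shmt2 overlapped, as did those of Mthfd1l with Mthfd1 and of Mthfd1 with Mthfd2, while all other neighbours were apart. In Induced cells Phgdh was highest, followed by Shmt2 and Mthfd2, Atf4 and Psph, Psat1 and Mthfd1, Asns, and last Shmt1 and Mthfd1l, with overlap within each of the 4 pairs named here. The spread over 3 libraries was small, with coefficients of variation of 0.780 to 13.0% in Initial and 2.94 to 13.3% in Induced cells. Induced library C held the highest value of its group for Phgdh, Psph, Shmt2, Mthfd1 and Mthfd1l, and the lowest for Psat1, Shmt1 and Mthfd2.

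The size of each change depended on how libraries were made comparable. Scaling the libraries to the CD3 chains and Trdc moved the median of all genes tested up by 0.21 on the log2 scale, and scaling to 20 T cell identity genes, a list that itself fell, by 0.92. Of the 5 CD3 and Trdc genes 2 fell (Cd3e and Cd3d) and 3 did not pass. Both scalings thus raise every gene in Induced against Initial libraries. Asns, Shmt1, Mthfd2, Psat1, Phgdh, Mthfd1 and Psph rose and Atf4 fell under each of these scalings. Shmt2 rose under both (by 0.44 and by 1.22 on the log2 scale, adjusted p = 0.0024 and 8.4e-08), and Mthfd1l had 0.20 (adjusted p = 0.15) and 0.96 (adjusted p = 2.55e-06), beside medians of all genes of 0.23 and 0.95 under the same scalings. Atf4 fell by 1.44 and by 0.65 on the log2 scale under the CD3 and T cell identity scalings.

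**Figure D3:**
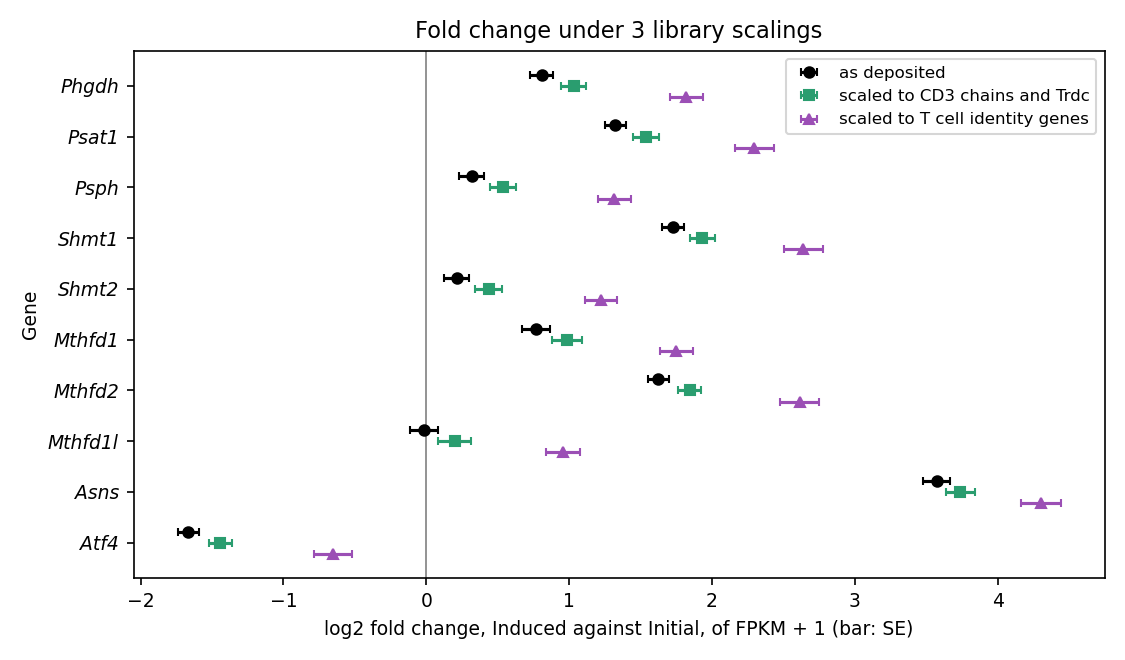
Log2 fold change of FPKM + 1 (Induced against Initial, bar: SE, 6 libraries) of the 10 genes with libraries as deposited (black), scaled to the CD3 chains and Trdc (green) and scaled to T cell identity genes (purple). Asns stands highest and Atf4 lowest under each scaling, with Atf4 at -1.67, -1.44 and -0.65.

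Genes of neighbouring pathways were taken from 7 further lists. The counts of each list stand beside shares of 37.3% called as higher and 33.1% as lower over all genes tested. Of 22 genes of the folate cycle and glycine cleavage list 14 were abundant enough to be tested, of which 9 rose, none fell and 5 did not pass (median log2 fold change 0.43). Tyms, for thymidylate synthase, which uses the folate-bound one-carbon unit to make thymidylate, had 6.00, 4.56 and 5.92 FPKM before and 49.3, 51.3 and 52.5 FPKM after culture, a rise of 3.01 on the log2 scale (SE 0.10, adjusted p = 1.9e-07).

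In the list of the methionine cycle, polyamines and transsulfuration, 15 of 17 genes were tested, of which 8 rose, 2 fell and 5 did not pass (median 0.38). Apip, of the methionine salvage pathway, went from 5.52 ± 0.943 to 16.1 ± 1.79 FPKM (SD, n = 3), and the spermidine synthase gene Srm from 32.8 ± 1.43 to 65.4 ± 12.1 FPKM. Amd1, for the decarboxylase that supplies polyamine synthesis, fell from 88.8 ± 3.51 to 36.1 ± 1.05 FPKM, and Mat2b, a regulatory subunit of methionine adenosyltransferase, from 161 ± 2.98 to 145 ± 2.01 FPKM. Mat2b passed with an adjusted p of 0.042, and it no longer passed when Initial A, Initial C or any 1 Induced library was left out (adjusted p = 0.069 to 0.13) and with the mouse as a block (adjusted p = 0.068). Its direction turned with the CD3 scaling (log2 fold change 0.08, adjusted p = 0.32) and the T cell identity scaling (0.87, adjusted p = 9.9e-06). With the latter the call of Amd1 was lost (adjusted p = 0.062).

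Of 12 genes that use serine or act on its entry into membrane lipids, 9 were tested, of which 5 rose, 1 fell and 3 did not pass (median 0.27). Serinc2, a membrane protein gene of the serine incorporator family, had 1.22, 0.375 and 0.440 FPKM before and 24.7, 24.3 and 10.6 FPKM after culture, with Induced library C well below A and B (rise of 3.58 on the log2 scale, SE 0.35, adjusted p = 8.4e-05). Serinc1 of the same family fell from 105 ± 2.19 to 61.3 ± 3.74 FPKM, and with the T cell identity scaling its log2 fold change was 0.24 (adjusted p = 0.12). The serine racemase gene Srr, which shares exonic bases with Tsr1 and Smg6 on the other strand, went from 2.48 ± 0.0332 to 4.51 ± 0.224 FPKM.

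Of 20 genes for enzymes of asparagine, aspartate, glutamate and proline, 16 were tested, of which 11 rose, 2 fell and 3 did not pass (median 0.42). The argininosuccinate synthase gene Ass1, whose enzyme consumes aspartate, went from 24.0, 21.0 and 27.1 to 55.0, 57.4 and 60.5 FPKM, and the proline synthesis gene Pycr1 from 0.339 ± 0.0397 to 1.84 ± 0.174 FPKM. Pycr1 was abundant enough to be tested only through its Induced libraries, so that rule fixed its direction. The glutamine synthetase gene Glul fell from 32.9, 27.4 and 28.5 to 9.38, 10.8 and 9.17 FPKM.

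Of 10 genes for carriers of serine, glycine and asparagine 6 were tested, of which 1 rose, 2 fell and 3 did not pass (median -0.16). Sfxn1, for the carrier that brings serine into the mitochondrion, rose from 22.4, 19.6 and 22.8 to 49.8, 48.6 and 64.2 FPKM, by 1.28 on the log2 scale (SE 0.12, adjusted p = 3.1e-05). Slc38a2, for a transporter of small neutral amino acids at the cell surface, fell from 138, 149 and 124 to 38.5, 38.0 and 48.0 FPKM, and Sfxn3 from 51.7 ± 2.62 to 23.2 ± 3.28 FPKM. The call of Sfxn3 was lost with the T cell identity scaling (adjusted p = 0.28).

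Genes upstream of ATF4 went both ways, as did all genes tested (37.3% called as higher, 33.1% as lower). All 9 listed genes for eIF2α, its kinases, their cofactors and its phosphatase subunits were tested, of which 3 rose, 4 fell and 2 did not pass (median -0.06). Ppp1r15a, for the inducible subunit that directs a phosphatase to eIF2α, fell from 254, 273 and 221 to 7.44, 7.45 and 8.59 FPKM, a change of -4.82 on the log2 scale (SE 0.09, adjusted p = 3.5e-08), and Impact, for an inhibitor of the kinase GCN2, from 19.2 ± 2.99 to 6.60 ± 0.647 FPKM. Eif2ak2, for the kinase PKR, went from 2.34 ± 0.0906 to 4.42 ± 0.511 FPKM and Eif2s1, for eIF2α itself, from 39.3 ± 2.30 to 57.1 ± 1.75 FPKM.

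Of 24 other partners and targets of ATF4 19 were tested, of which 10 rose, 5 fell and 4 did not pass (median 0.33). Stc2, a secreted glycoprotein gene, went from 0.145, 0.120 and 0.171 to 3.41, 3.77 and 3.53 FPKM, and Ddit4, for an inhibitor of mTORC1, from 5.09 ± 0.620 to 19.4 ± 1.08 FPKM. Atf3, a stress-induced factor of the same family, fell with Atf4, from 89.7, 87.5 and 71.1 to 0.426, 0.664 and 0.795 FPKM, a change of -5.68 on the log2 scale (SE 0.12, adjusted p = 4.4e-08). Stc2 and Nupr1 were abundant enough to be tested only through their Induced libraries and Atf3 only through its Initial ones. Nupr1, counted among the genes that rose, went from 0.756 ± 0.122 to 3.69 ± 0.940 FPKM (SD, n = 3). That rule fixed the direction of Stc2, Nupr1 and Atf3 in the counts above. Cebpb, for a C/EBP partner of ATF4, fell from 202 ± 35.1 to 34.5 ± 3.06 FPKM, and it overlaps Tmem189 on the other strand. The other 3 genes of this list that fell, named here only to complete the count, were Slc3a2, Ddit3 and Jdp2.

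**Figure D4:**
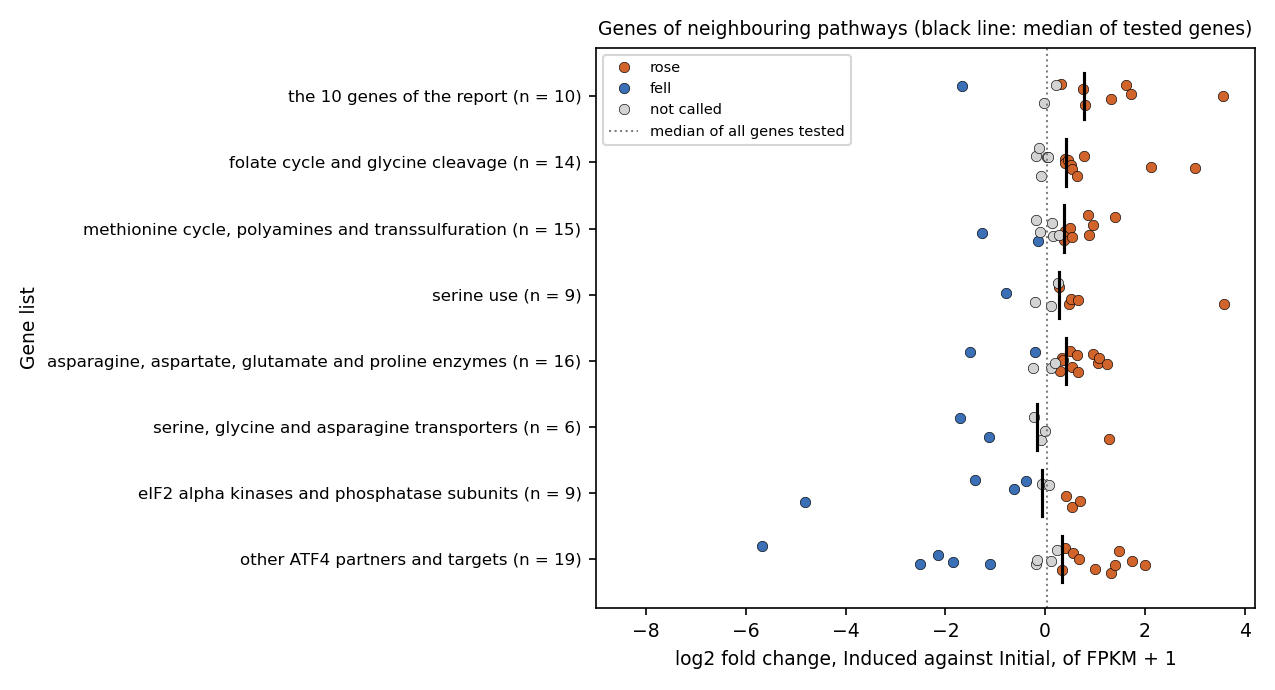
Log2 fold change of FPKM + 1 (Induced against Initial) of every tested gene in 8 lists, coloured by call, with the median of each list as a black line and the median of all 11265 genes tested as a dotted line. The lists of enzymes lie mostly to the right of the dotted line, the transporters and the eIF2α list on both sides, and Atf3 and Ppp1r15a farthest to the left.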

How the data were processed

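Libraries of 3 Initial and 3 Induced samples were grouped, with mouse letters, from the sample titles. The deposited values are FPKM per gene, which the authors computed with Cuffdiff, per the labels' protocols. The tools CASAVA, HISAT2 2.0.5 and Cuffdiff (1.3.0 and 2.2.1) and the build mm9 are named per the submitters' processing notes. The tables' gene spans do not carry mm9 positions: of 26669 identifiers found in GENCODE M21 (GRCm38), 90.72% lie inside the listed span and 99.94% share its chromosome. Positions are therefore those of GENCODE. A gene without a row was taken as 0, and 24 date-like symbols were restored from identifiers.

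A gene was tested where 3 or more libraries reached an FPKM of 1, which left 11265 genes, among them all 10 of the report. Stc2, Nupr1 and Pycr1 reached that level in Induced libraries only and Atf3 in Initial libraries only, so the filter fixed their direction. Before culture Asns reached it only in library C and Serinc2 only in library A. With no filter the calls of the 24 other pathway and cell cycle genes followed here were the same. Two-sided tests of log2(FPKM + 1) came from limma 3.58.1 (R 4.3.3; trend and robust options on, no block), with Benjamini-Hochberg adjustment over all genes tested, and the script was checked on simulated data. Within-library ratios were tested with exact permutation tests (scipy 1.17.1). The labels name the same mice in both groups, which pairs libraries by animal. Deviations from group means correlated by 0.0393, 0.0307 and 0.1308 within mice A, B and C and by -0.1324 to 0.0988 between mice. The libraries of a group come from different mice, so p-values measure the spread between 3 mice handled together.

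No counts were used. Low FPKM values times transcript length came in rough steps of 1 fragment (44.7 to 49.1% within 0.15 of a whole number), from which depth was put at about 19700000 to 22600000 fragments per library. Each depth was the trial value with the highest such share. An even spread gives 30% at a fixed depth and more at a chosen best one, so the depths are rough. Libraries listed 20419 to 21844 (Initial) and 16550 to 17033 genes (Induced), and correlated by 0.9862 to 0.9955 within groups. The 10 genes, the lists and the tests were chosen with earlier results of these data known. From each pathway list the 2 largest rises and 2 largest falls by log2 fold change were named, among called genes whose groups did not overlap. Some genes that this rule takes are not reported here. The same rule applied to the cell cycle list gave Aurkb and Ccnb2, which are not described. Promoter windows came from RefSeq (GRCm38.p6). Alternatives were other pseudocounts, filters, scalings and shrinkage, the mouse as a block, and leaving out each library. Figures were drawn with matplotlib 3.10.9.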

Additional observations from a re-analysis of the deposited data

How the results depend on the processing

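The counts of the 10 genes that rose (7) and fell (1) were recomputed under 17 alternatives. The count that rose was 8 with the mouse as a replicate block, with the CD3 scaling and without Induced library B, each time through Shmt2, 9 with the T cell identity scaling through Shmt2 and Mthfd1l, and 7 in the others. Atf4 was called as lower in all 17, with log2 fold changes of -1.73 to -0.65. The calls of Phgdh, Psat1, Psph, Shmt1, Mthfd1, Mthfd2 and Asns also held in all 17, and Psph came nearest to the threshold (adjusted p up to 0.0452). The sign of Mthfd1l turned with the CD3 scaling (0.20), with the T cell identity scaling (0.96) and without Initial library A (0.0191) or Induced library A (0.0686), within a range of -0.1056 to 0.0686 over the libraries left out. The sign of Mat2b (0.0764 and 0.87) turned with these scalings, and that of Serinc1 (0.24) with the T cell identity scaling. Both scalings by construction raise all genes in Induced against Initial libraries. Of all called genes 52.9% rose with the deposited values, 66.8% with the CD3 scaling and 87.1% with the T cell identity scaling. The paired fit called 7943 genes against 7931, and changed no call of the 10 genes other than that of Shmt2. Among the 24 other pathway and cell cycle genes followed here it ended that of Mat2b, as did ordinary shrinkage (adjusted p = 0.0748). Of these 24, 23 were tested without any 1 Initial library, 22 without any 1 Induced library and 20 with the filter at FPKM 5. Paired by mouse, the 3 log2 ratios kept their differences of -1.52, 0.86 and -0.78, with p = 0.25 in an exact sign-flip test, the smallest that 3 pairs allow. With each library left out in turn they ran from -1.63 to -1.44, 0.74 to 0.995 and -0.86 to -0.72. Asns was the lowest of the 10 genes in Initial libraries, which differed by a coefficient of variation of 13.0%. At the roughly estimated depth, counting alone gives 12.5 to 14.6% there.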
